A study of Mus musculus with 35 samples.

Results

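The breakdown of the branched-chain amino acids leucine, isoleucine and valine was followed through 10 genes, picked by name, among the 55421 genes of a count table from mouse interscapular brown adipose tissue (iBAT). They are Bcat1 and Bcat2, Bckdha, Bckdhb and Dbt, Bckdk and Ppm1k, and Ivd, Mccc1 and Mccc2. All animals were male C57BL/6J mice of 9 to 10 weeks on standard chow with no genetic modification. Controls stayed at colony room temperature (24 °C), and the other mice were kept at 6 °C for 6 hours or for 1, 2, 3, 4 or 5 days, with 5 mice in each of the 7 groups. Cold mice were caged singly in static cages without nesting material, so housing and temperature cannot be told apart. RNA from a fat pad of each mouse was sequenced from the 3′ ends of transcripts, and the comparisons ask how the pathway's transcripts moved as cold exposure went on.

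Branched-chain amino acids are first stripped of their amino group by the branched-chain aminotransferases, and the resulting keto acids are oxidised in mitochondria by the branched-chain keto acid dehydrogenase complex, the committed step of the pathway. A kinase switches that complex off by phosphorylation and a phosphatase switches it back on. The carbon then enters separate routes for each amino acid, with isovaleryl-CoA dehydrogenase and methylcrotonyl-CoA carboxylase on the leucine route. Active brown fat is known to take up and oxidise these amino acids as a fuel for heat production.

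All 10 genes had counts. Their mean levels under room temperature ranged from 126 ± 17.2 CPM (reads of a gene scaled to a common library total by TMM, SD, n = 5) for Bckdha to 0.189 ± 0.315 for Bcat1. Bcat1 had too few reads to pass the filter on low counts, so 9 genes entered the fits. Libraries held 3846016 to 6047247 counts, of which 33.6 to 46.2% were mitochondrial and 7.81 to 16.3% came from the ribosomal-like transcript Gm42418, and 1 read was worth 0.165 to 0.260 CPM. The tissue label was checked on 9 brown adipocyte genes, all of them present, with a summed level of 14030 to 25013 CPM per library. Ucp1, which uncouples respiration for heat, had a median of 1977 CPM at room temperature and 6864 CPM after 6 hours of cold, but the list did not rise as a whole: by the test described below 1 of the 9 was higher and 2 were lower at 6 hours, 1 and 4 at 1 day, 1 and 3 at 2 days, 2 and 4 at 3 and at 4 days, and 3 and 3 at 5 days. Ppara, a receptor that drives fat oxidation genes, had medians of 330 CPM at room temperature and 138 CPM at 6 hours, and Cidea, a lipid droplet protein, had 2413 and 2277 CPM. Other cell types were also present and varied. The summed level of 4 endothelial genes ran from 228 to 280 CPM in controls and from 393 to 485 CPM at 6 hours (2 higher, 1 lower), and that of 4 white adipocyte genes from 67.3 to 119 and from 244 to 310 CPM (1 higher, 2 lower), without overlap in either case. In the latter list Nnmt had a median of 28.7 CPM in controls and 211 CPM at 6 hours, while Lep, the gene of leptin, had 10.7 and 2.22 CPM. The summed level of 5 skeletal muscle genes ran from 2.31 to 918 CPM between libraries, that of 8 macrophage and monocyte genes had a median of 44.4 CPM at room temperature, 55.2 CPM at 6 hours and 304 CPM at 3 days, and that of 5 genes of dividing cells had medians of 6.25, 2.88 and 33.3 CPM. Of the macrophage and monocyte genes that were tested, 0 were higher and 1 lower of 5 at 6 hours. The counts were 5 and 0 of 7 at 3 days, and 4 and 0 of 6 at 4 and at 5 days. A defining macrophage gene, Adgre1, ranged from 0.471 to 18.1 CPM over all libraries. The part of these cells in the results below was not tested. In whole tissue, fewer cells of a type and less RNA per cell cannot be told apart.

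The sequence before the start of 3 genes that were lower in cold is shown here, since Ppm1k changed the most of the 9 genes tested and Ivd and Bcat2 fell with it at several durations. Each run holds the 250 bases before the RefSeq start in GRCm38.p6, 5′ to 3′ on the gene's strand: chr6:57535488-57535737 (minus strand) for Ppm1k, chr2:118861744-118861993 (plus strand) for Ivd and chr7:45569903-45570152 (plus strand) for the first of 2 Bcat2 starts. Capitals mark motif matches.
Ppm1k: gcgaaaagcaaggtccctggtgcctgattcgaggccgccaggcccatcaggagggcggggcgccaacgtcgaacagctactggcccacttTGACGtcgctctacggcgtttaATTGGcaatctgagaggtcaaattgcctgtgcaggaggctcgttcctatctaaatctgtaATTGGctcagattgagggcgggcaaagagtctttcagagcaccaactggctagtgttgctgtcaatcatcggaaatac
Ivd: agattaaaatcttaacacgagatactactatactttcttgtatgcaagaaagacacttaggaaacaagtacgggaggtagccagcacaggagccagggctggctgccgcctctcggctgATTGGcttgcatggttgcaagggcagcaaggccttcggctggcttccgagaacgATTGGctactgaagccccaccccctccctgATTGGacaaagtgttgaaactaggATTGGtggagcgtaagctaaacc
Bcat2: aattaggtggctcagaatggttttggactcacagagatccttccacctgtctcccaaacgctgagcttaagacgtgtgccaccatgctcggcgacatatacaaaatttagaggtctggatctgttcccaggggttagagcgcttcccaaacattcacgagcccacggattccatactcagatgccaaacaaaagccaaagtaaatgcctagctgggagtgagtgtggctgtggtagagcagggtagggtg
In Ppm1k the capitals are TGACG, the core of the cAMP response element, 160 bases before the start, and a CCAAT box in its reverse form at 138 and 78 bases. Ivd holds CCAAT boxes at 131, 77, 47 and 23 bases before its start, also in reverse form, and Bcat2 holds no match. The motifs searched on both strands of the window from 250 bases before to 50 bases after each start were TCAAGGTCA (the element of estrogen-related receptors), the element of PPAR receptors (2 copies of AGGTCA with any base between), TGACGTCA (the full cAMP response element), its core given above, which overlaps it, the E-box (letters CACGTG) and the box named after its own letters, CCAAT. In that order they occurred in 0.423%, 0.0396%, 1.79%, 20.8%, 7.15% and 37.4% of the 32851 promoters. RefSeq windows were matched for 9 of the 10 genes (12 windows, Dbt not among them), with a GC content of 37.3 to 65% against a median of 52.7% over all promoters, and the first 3 motifs matched none of the 12. CCAAT boxes were not limited to genes that were lower in cold. They also lay in windows of Bcat1, Bckdhb, Bckdk, Mccc1 and Mccc2, and that of Mccc2 held an E-box too.

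Against room temperature, edgeR's quasi-likelihood test called a gene when its p, adjusted over all tested genes by Benjamini and Hochberg, was below 0.05. By this rule there were 1 gene higher and 3 lower of the 9 at 6 hours, 1 and 5 at 1 day, 3 and 4 at 2 days, 1 and 1 at 3 days, 2 and 3 at 4 days, and 2 and 4 at 5 days. Large shares of all tested genes were called in the same comparisons: 42.5% at 6 hours (21.5% higher, 21.0% lower), 36.7% at 1 day (18.9% and 17.8%), 31.2% at 2 days (16.4% and 14.7%), 33.8% at 3 days (18.3% and 15.5%), 38.0% at 4 days (19.4% and 18.6%) and 38.8% at 5 days (20.2% and 18.6%). The share of the 9 genes called was 44.4%, 66.7%, 77.8%, 22.2%, 55.6% and 66.7% in that order. Their median log2 fold change was -0.20, -0.42, -0.07, -0.01, 0.14 and 0.06, while the median over all tested genes lay between -0.03 and -0.01. With scaling by library size alone, the median of all genes shifted down by 0.13 to 0.23 on the log2 scale and the share of calls that were higher fell from 50.6 to 28.3% at 6 hours, 51.4 to 26.2% at 1 day, 52.8 to 25.1% at 2 days, 54.2 to 35.5% at 3 days, 51.0 to 35.0% at 4 days and 52.0 to 26.3% at 5 days. The genes followed here then had 1 higher and 6 lower at 6 hours, beside 1342 higher and 3399 lower of all 10593 tested genes. At the later durations they had 1 and 6, 1 and 4, 1 and 2, 1 and 3, and 1 and 4 in order. Under TMM no common direction was seen: the pathway held genes that were higher in cold at every duration (Dbt) and genes that were lower at 4 or 5 of the 6 durations (Bcat2, Bckdk, Ppm1k, Ivd). Over all 7 groups together, 8 of the 9 differed, Mccc1 being the exception (adjusted p 0.0601), beside 60.4% of all genes. With library size alone Bckdhb was lost (0.0611), as it was without the filter (0.0501), and Mccc2 was lost with a replicate block (0.0632). Of the 30 calls against room temperature, 19 held under every one of the alternatives tried, and these were Dbt at all durations, Ppm1k at 6 hours and at 1, 4 and 5 days, Bcat2 at 1, 2, 4 and 5 days, Ivd at 1, 4 and 5 days and Bckdk at 1 and 5 days.

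**Figure D1:**
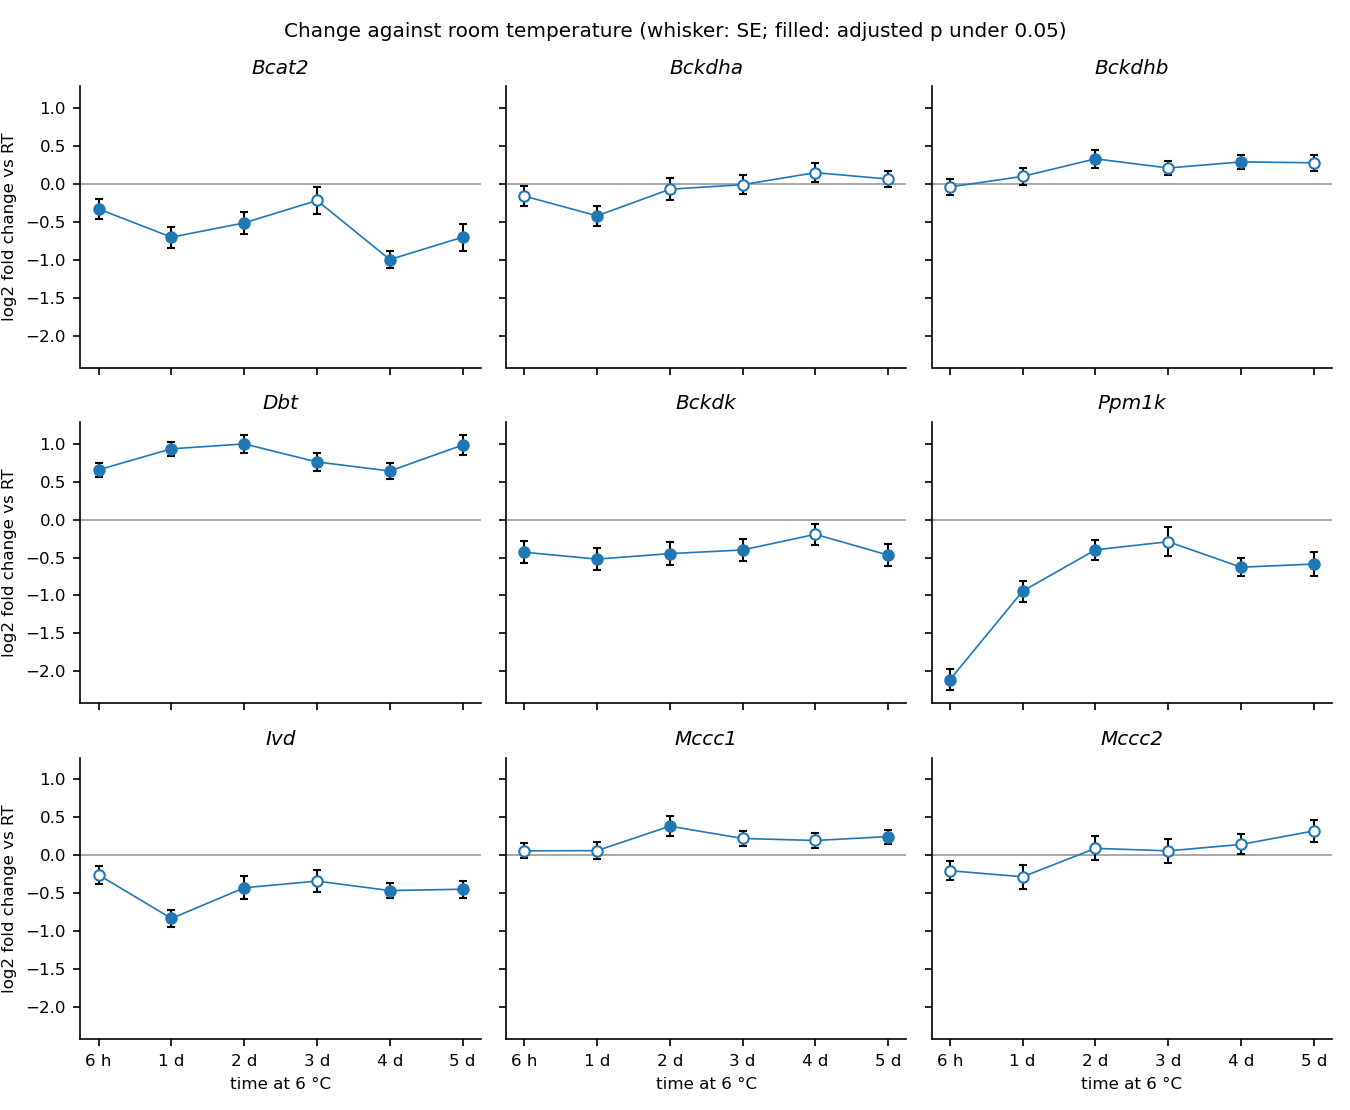
Log2 fold change of 9 genes against room temperature (vertical axis) by time at 6 °C (horizontal axis), from edgeR fits of 5 cold and 5 control mice per duration. Whiskers are SE and filled points passed the test. Ppm1k falls to -2.11 at 6 hours and comes part of the way back, Dbt lies between 0.64 and 1.00 throughout, and Mccc2 has no filled point.

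The aminotransferases came first. Bcat2 encodes the mitochondrial aminotransferase, which most tissues use. The gene lies at chr7:45570153-45589711 on the plus strand (GRCm38). Control mice had 24.5, 27.8, 25.7, 27.3 and 29.6 CPM. After 1 day of cold the values were 16.7, 12.8, 17.4, 21.5 and 14.7 CPM, and after 4 days they were 12.1, 13.6, 15.2, 12.6 and 14.1 CPM. All 5 mice lay below every control at 1, 2 and 4 days, and the 4-day mice were at 50.1% of the control mean. Bcat2 fell by 0.33 ± 0.13 (SE) on the log2 scale at 6 hours (adjusted p 0.0440), by 0.70 ± 0.14 at 1 day (0.000736), by 0.52 ± 0.15 at 2 days (0.0147), by 1.00 ± 0.12 at 4 days (5.26e-06) and by 0.70 ± 0.18 at 5 days (0.00445). At 3 days the mice had 18.0, 24.0, 17.1, 20.2 and 36.7 CPM, and the log2 fold change of -0.22 ± 0.17 was not called (adjusted p 0.353). Leaving out the mouse at 36.7 CPM (cold 3 days replicate 5) gave -0.44 with an adjusted p of 0.0186. The call at 6 hours was lost under 3 of the 7 other settings and without control mouse 2, 3, 4 or 5 or cold mouse 2, 3 or 4 (adjusted p up to 0.139).

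Bcat1, the cytosolic aminotransferase (chr6:144993835-145076184, minus strand), was at the limit of what this depth can show. The 5 control libraries held 0, 0, 1, 0 and 4 reads and the 5 libraries of 4 days held 3, 11, 6, 4 and 8 reads. Mean levels were 0.189 ± 0.315 CPM at room temperature, 0.413 ± 0.280 at 6 hours, 0.426 ± 0.626 at 1 day, 0.890 ± 0.557 at 2 days, 0.832 ± 0.635 at 3 days, 1.14 ± 0.534 at 4 days and 0.601 ± 0.635 at 5 days. At 4 days 4 of 5 mice lay above every control, and an exact permutation test on log2 CPM (two-sided, added after the counts were seen) gave p = 0.0159, or 0.0952 after adjustment over the 6 durations. Adjusted exact p-values at the other durations ran from 0.119 to 0.516, so no duration passed by this test. In a fit without the filter on low counts Bcat1 was called at 4 days (log2 fold change 2.50, adjusted p 0.0148) and at no other duration (adjusted p from 0.109 to 0.512). Macrophage and dividing-cell genes were also higher at 3 to 5 days (Lgals3 from a median of 5.98 CPM in controls to 122 CPM at 4 days, Top2a from 3.09 to 18.6 CPM), and between mice of the same duration Bcat1 and Lgals3 had r = 0.404 (permutation test, p = 0.0298, adjusted 0.0809 over 6 relations) and Bcat1 and Top2a had r = 0.249 (permutation test, adjusted p 0.251), neither of which passed the threshold after adjustment.

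**Figure D2:**
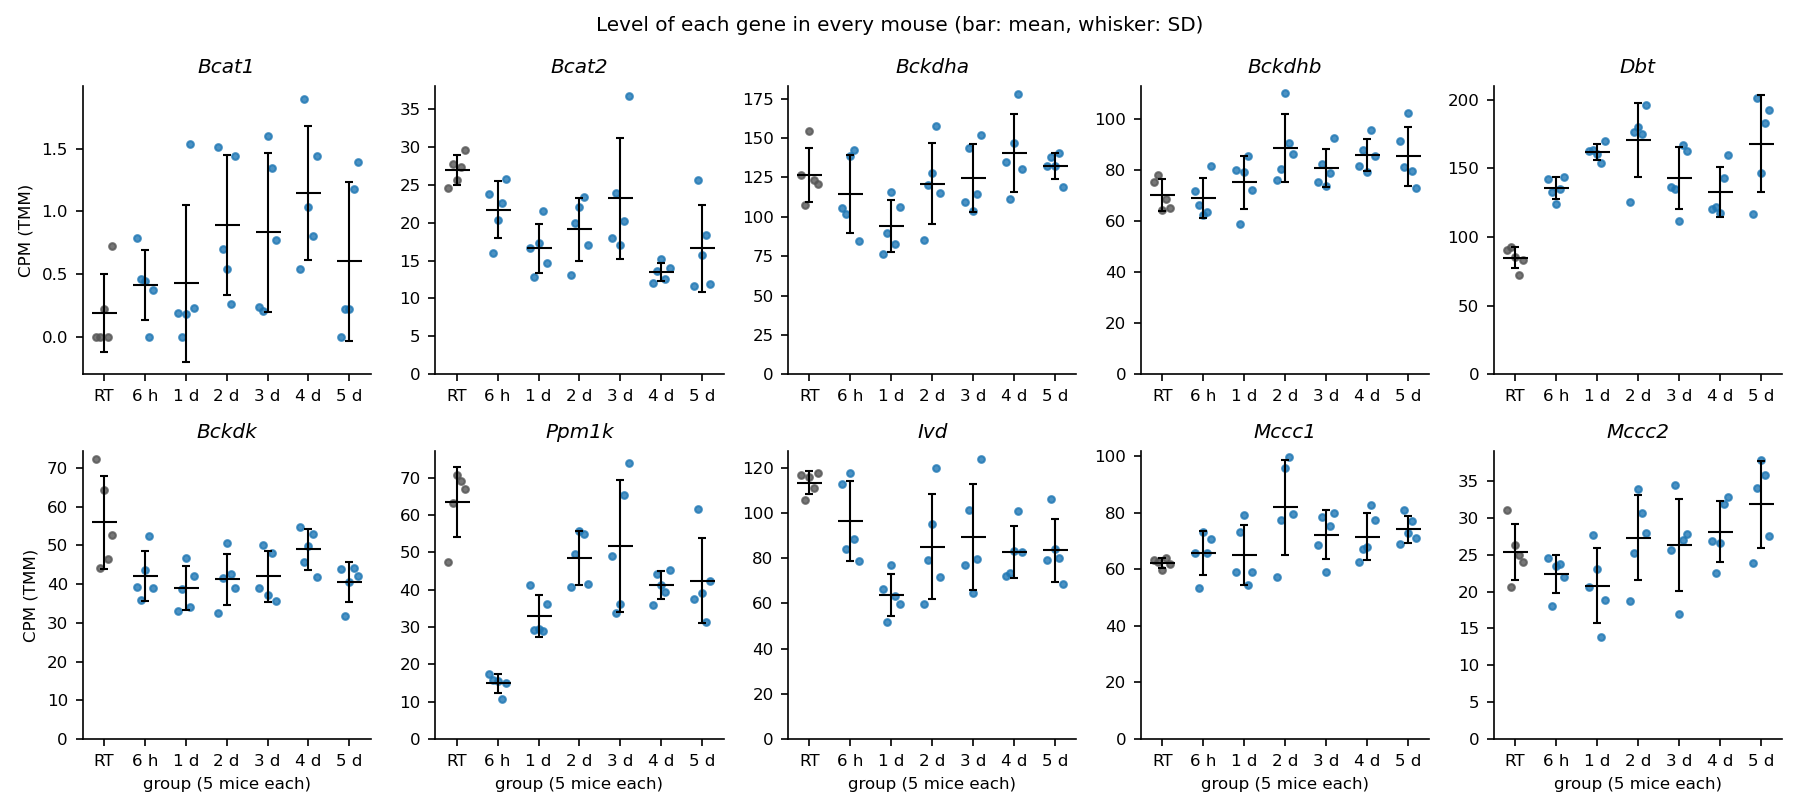
CPM with TMM normalization (vertical axis) of the 10 genes in each of the 35 mice by group (horizontal axis). Points are mice, bars are means and whiskers are SD (n = 5). The 5 Ppm1k values at 6 hours (10.8 to 17.5 CPM) lie below all others of that gene, Dbt lies above its controls in every cold mouse, and Bcat1 stays under 2 CPM.

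The subunits of the dehydrogenase complex did not move together. Dbt encodes the dihydrolipoyl transacylase that forms the core of the complex (chr3:116513070-116549981, plus strand), and was higher in all 30 cold mice than in any control. Controls had 90.5, 93.0, 85.5, 72.7 and 83.3 CPM. At 6 hours the mice had 142, 133, 124, 135 and 144 CPM, and at 1 day 162, 163, 161, 154 and 170 CPM. At 2 days they had 125, 177, 180, 175 and 197 CPM, and at 5 days 117, 202, 147, 183 and 192 CPM. The spread between mice was thus narrow at 1 day (SD 5.70 CPM) and wide at 5 days (SD 35.5 CPM). Values at 3 days ran from 112 to 167 CPM and at 4 days from 118 to 160 CPM. Dbt rose by 0.65 ± 0.09 (SE) on the log2 scale at 6 hours (adjusted p 2.35e-05), 0.93 ± 0.09 at 1 day (1.32e-06), 1.00 ± 0.12 at 2 days (1.98e-05), 0.76 ± 0.12 at 3 days (0.000115), 0.64 ± 0.10 at 4 days (0.000164) and 0.98 ± 0.14 at 5 days (1.90e-05). Groups without overlap in this direction made up 15.5% of all genes at 6 hours, 13.2% at 1 day, 11.0% at 2 days, 11.6% at 3 days, 13.3% at 4 days and 13.4% at 5 days.

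Bckdha encodes the alpha chain of the decarboxylase part of the complex, which carries the sites that the kinase phosphorylates (chr7:25629946-25658981, minus strand). Its controls had 127, 107, 154, 123 and 121 CPM and its 1-day mice 76.5, 89.7, 116, 82.8 and 107 CPM, so that 4 of the 5 cold mice lay below every control. Bckdha fell by 0.42 ± 0.13 on the log2 scale at 1 day (adjusted p 0.0163). It was not called at any other duration, with log2 fold changes from -0.16 to 0.15 and adjusted p from 0.356 to 0.950, although with library size alone it was also called lower at 6 hours (log2 fold change -0.36). The call at 1 day was lost without control mouse 3 or cold mouse 1 (adjusted p up to 0.0539). An exon of B3gnt8 on the opposite strand overlaps 1171 bases of Bckdha up to its 3′ end, and since the strand setting of the counting is not given in the sources used here, reads of the 2 genes may not be told apart there. B3gnt8 held 522 counts in all 35 libraries.

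Bckdhb encodes the beta chain that pairs with Bckdha (chr9:83925145-84124240, plus strand). Controls had 75.3, 78.2, 64.4, 68.9 and 65.1 CPM, and the 4-day mice had 81.8, 88.2, 79.3, 95.7 and 85.8 CPM, all above every control. Bckdhb rose by 0.33 ± 0.11 at 2 days (adjusted p 0.0390) and by 0.29 ± 0.09 at 4 days (0.0210) on the log2 scale, and gave 0.28 ± 0.11 at 5 days (0.0512), which was called with DESeq2, in a shared fit and without control mouse 2 or cold mouse 4 or 5 (adjusted p down to 0.0268). The call at 4 days was lost with scaling by library size alone and without control mouse 4 or 5. The call at 2 days was lost with scaling by library size alone, without the filter and without control mouse 3, 4 or 5 or cold mouse 3, 4 or 5 (adjusted p up to 0.118).

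The order of Dbt and Bckdha within a mouse, chosen for description after the values were seen, was turned in most cold mice. QuantSeq counts tags from transcript ends, so levels of different genes are not scaled by length, although genes may still differ in how well their ends are captured. Bckdha was above Dbt in all 5 controls on this scale, and Dbt was above Bckdha in 3 of 5 mice at 6 hours, in 5 of 5 at 1 day and at 2 days, in 4 of 5 at 3 days, in 2 of 5 at 4 days and in 4 of 5 at 5 days. Mean levels were 126 ± 17.2 CPM of Bckdha and 85.0 ± 7.89 CPM of Dbt in controls, and 94.3 ± 16.5 and 162 ± 5.70 CPM at 1 day. Between mice of the same duration Bckdha and Bckdhb had r = 0.0533 (permutation test, adjusted p 0.787) and Bckdha and Dbt had r = 0.216 (permutation test, adjusted p 0.251), and neither passed the threshold. Dld, the dihydrolipoyl dehydrogenase that this complex shares with the pyruvate and oxoglutarate dehydrogenases, was higher at all 6 durations, with log2 fold changes of 0.25 at 6 hours (adjusted p 0.0283), 0.41, 0.55, 0.48, 0.56 and 0.67 at 5 days (3.19e-05).

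The largest change among the 9 genes was that of Ppm1k at 6 hours, while the other regulator of the complex, Bckdk, moved by at most 0.52 on the log2 scale. Ppm1k encodes the mitochondrial phosphatase that removes the inhibiting phosphate (chr6:57506502-57535468, minus strand), and after 6 hours of cold its level was 23.5% of the control mean. Controls had 47.3, 63.1, 70.7, 69.1 and 67.0 CPM. At 6 hours the mice had 17.5, 15.7, 15.4, 10.8 and 15.0 CPM, and at 1 day 41.2, 29.2, 29.3, 28.9 and 36.3 CPM. Both groups lay wholly below the controls without overlapping each other, and 6-hour values in their turn lay below those of every other duration. At 2 days the values were 40.6, 49.6, 55.7, 54.9 and 41.5 CPM, at 3 days 49.0, 33.8, 36.1, 65.3 and 74.0 CPM, at 4 days 35.9, 44.3, 41.1, 39.2 and 45.2 CPM and at 5 days 37.6, 61.6, 39.2, 31.3 and 42.4 CPM. The 4-day mice were again all below the controls, while the 3-day mice spread over and beyond the control range (SD 17.7 CPM). Ppm1k fell by 2.11 ± 0.14 (SE) on the log2 scale at 6 hours (adjusted p 3.84e-09), by 0.94 ± 0.14 at 1 day (5.44e-05), by 0.40 ± 0.13 at 2 days (0.0325), by 0.63 ± 0.12 at 4 days (0.000503) and by 0.59 ± 0.16 at 5 days (0.00683). At 3 days the log2 fold change was -0.29 ± 0.19 (adjusted p 0.252). Across the alternatives and the omission of each mouse the value at 6 hours stayed between -2.29 and -2.01. The call at 2 days was lost when all groups shared a fit and without control mouse 3, 4 or 5 or cold mouse 1, 2 or 5 (adjusted p up to 0.0841).

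The cold durations were also compared with each other. From 6 hours to 1 day 2 of the 9 genes were higher and 1 lower, beside 16.9% of all genes called (9.19% higher, 7.75% lower). All 3 had groups without overlap, which was so for 5.92% of all genes in the higher and 6.16% in the lower direction. Ppm1k rose by 1.16 ± 0.15 on the log2 scale (adjusted p 4.30e-05), Ivd fell by 0.58 ± 0.13 (0.00562) and Dbt rose by 0.27 ± 0.09 (0.0479). The Dbt call was lost under 4 of the 7 other settings and without any 1 mouse other than cold 1 day replicate 4, with adjusted p up to 0.111. From 6 hours to 5 days 3 genes were higher and none lower, beside 35.8% of all genes (19.0% higher, 16.9% lower): Ppm1k rose by 1.53 ± 0.17 (8.10e-07), Mccc2 by 0.52 ± 0.14 (0.00680) and Bckdhb by 0.32 ± 0.11 (0.0320). The Bckdhb call was lost under 2 of the 7 other settings and without 6-hour mouse 2, 3 or 4 or 5-day mouse 1 or 3 (adjusted p up to 0.101). Dbt gave 0.33 ± 0.13 (0.0501) and was called without 5-day mouse 1 or 3 (down to 0.00422), and Bcat2 gave -0.37 ± 0.19 (0.146) and was called without 5-day mouse 2 (0.0166).

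Bckdk encodes the kinase that inactivates the complex (chr7:127904082-127910221, plus strand). Controls had 72.4, 44.3, 64.2, 46.4 and 52.6 CPM, a wide spread. The 6-hour mice had 39.3, 36.0, 43.6, 52.5 and 38.9 CPM and the 5-day mice 43.8, 31.7, 40.5, 44.2 and 42.2 CPM, the latter all below every control. The highest 5-day mouse lay at 44.25 CPM and the lowest control at 44.26 CPM, a gap smaller than 1 read. Bckdk fell by 0.43 ± 0.14 on the log2 scale at 6 hours (adjusted p 0.0214), by 0.52 ± 0.15 at 1 day (0.0102), by 0.45 ± 0.15 at 2 days (0.0326), by 0.40 ± 0.15 at 3 days (0.0429) and by 0.47 ± 0.14 at 5 days (0.0130). At 4 days the values were 54.7, 45.6, 49.8, 52.9 and 41.8 CPM and the log2 fold change was -0.19 ± 0.14 (adjusted p 0.277). The omission of control mouse 1 or 3 ended the calls at 6 hours, 2 days and 3 days, as did that of cold mouse 1 or 2 at 6 hours, of cold mouse 1, 2 or 5 at 2 days, and of control mouse 5 or cold mouse 1, 3 or 5 at 3 days (adjusted p up to 0.123).

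Kinase and phosphatase were both lower at 6 hours, but by different amounts. The log2 CPM of Bckdk minus that of Ppm1k was 0.61, -0.51, -0.14, -0.57 and -0.35 in the control mice and 1.14, 1.18, 1.47, 2.24 and 1.35 in the 6-hour mice, without overlap. The mean went from -0.19 ± 0.48 (SD, n = 5) to 1.48 ± 0.44, a difference of 1.67 (exact two-sided permutation test, p = 0.00794, the smallest that 252 splits of 5 against 5 allow, adjusted 0.0476 over 6 durations). At the other durations the difference was 0.43 at 1 day, -0.04 at 2 days, -0.05 at 3 days, 0.44 at 4 days and 0.15 at 5 days, with adjusted exact p from 0.302 to 0.937. Control mouse 1 had the highest value of its group (0.61), and without it the differences at 1 day and 4 days were 0.63 and 0.64 (adjusted exact p 0.0476 each) and those at 2 and 3 days turned to 0.16 and 0.15. Without any 1 of the 6-hour mice the adjusted exact p at 6 hours was 0.0952, at differences of 1.48 to 1.75. Without any 1 control it stayed at 0.0476. The groups did not overlap after any of these omissions, each of which allows fewer splits than 252. Between mice of the same duration Bckdk and Ppm1k had r = -0.383 (permutation test, p = 0.0404, adjusted 0.0809), rho = -0.283 and r = -0.237 without the 2 mice farthest out.

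**Figure D3:**
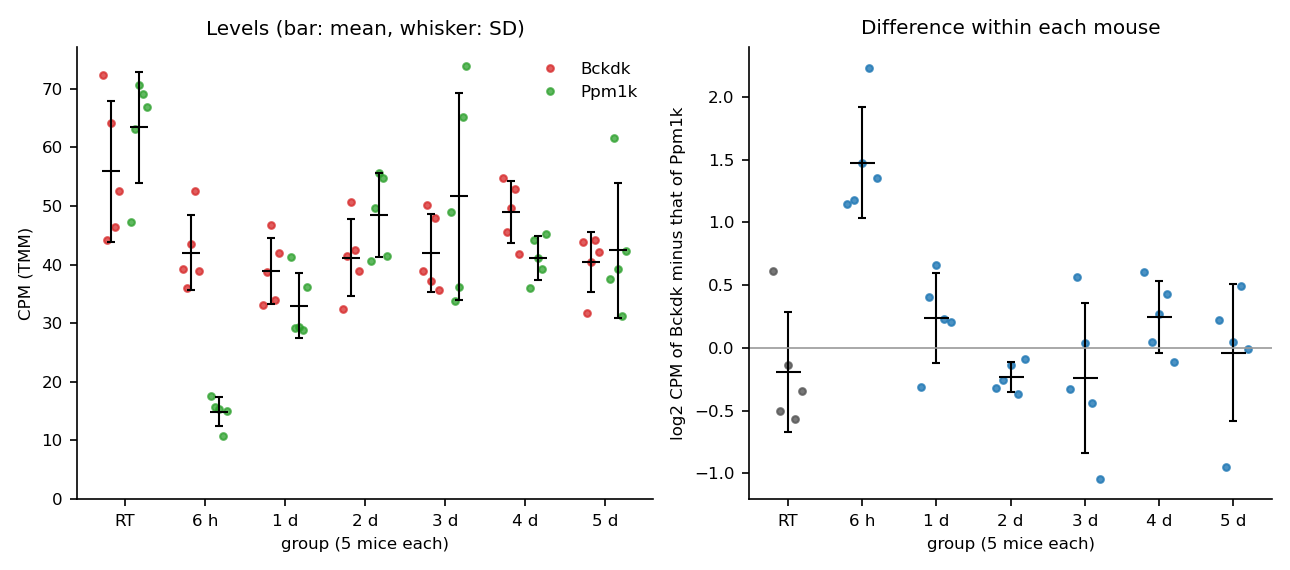
Left, CPM of Bckdk and Ppm1k in every mouse by group, with means and SD. Right, log2 CPM of Bckdk minus that of Ppm1k within each mouse, with a line at equal levels. At 6 hours all 5 mice lie above 1.14, while the controls lie between -0.57 and 0.61.

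The leucine route held a gene that fell and a pair that moved little. Ivd, isovaleryl-CoA dehydrogenase, carries out the first step after the complex (chr2:118861954-118882909, plus strand). Controls were close together at 117, 106, 116, 111 and 118 CPM. The 6-hour mice had 113, 83.8, 118, 88.4 and 78.7 CPM and the 1-day mice 66.5, 51.8, 77.1, 63.2 and 59.9 CPM. The 6-hour mice thus fell into both the control range and a lower one, whereas at 1 day and at 4 days (72.2 to 101 CPM) every mouse lay below every control. Ivd fell by 0.83 ± 0.11 (SE) on the log2 scale at 1 day (adjusted p 2.03e-05), by 0.43 ± 0.15 at 2 days (0.0394), by 0.46 ± 0.10 at 4 days (0.00156) and by 0.45 ± 0.11 at 5 days (0.00410). The value at 6 hours was -0.26 ± 0.11 (adjusted p 0.0747) and that at 3 days -0.34 ± 0.14 (0.0742). Without cold 3 days replicate 5, at 124 CPM, the 3-day value was -0.48 (adjusted p 0.00656), and without 6-hour mouse 1 or 3 the 6-hour value reached -0.33 (0.0282). The 2-day call was lost without control mouse 1, 3, 4 or 5 or cold mouse 1, 2 or 5 (adjusted p up to 0.102).

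Groups without overlap made up 28.5% of all genes at 6 hours, and those that lay lower in cold made up 13.0% at 6 hours, 11.9% at 1 day, 9.14% at 2 days, 10.4% at 3 days, 11.8% at 4 days and 11.3% at 5 days. Of the 9 genes, 1 (Ppm1k), 3 (Bcat2, Ppm1k and Ivd), 1 (Bcat2), 0, 3 (Bcat2, Ppm1k and Ivd) and 1 (Bckdk) did so in that order, Bckdk by less than 1 read. Groups wholly above the controls were those of Dbt at every duration, Bckdhb at 4 days and Mccc1 at 5 days.

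Mccc1 and Mccc2 encode the biotin-bearing and the carboxyltransferase subunit of methylcrotonyl-CoA carboxylase (chr3:35959312-36000678 and chr13:99948530-100015639, both minus strand). Mccc1 had 63.3, 62.5, 59.6, 63.8 and 61.9 CPM in controls, the narrowest control spread of the 10 genes (a coefficient of variation of 2.62%), and 68.9, 80.9, 72.9, 76.9 and 70.9 CPM at 5 days, all above every control. Mccc1 rose by 0.38 ± 0.13 on the log2 scale at 2 days (adjusted p 0.0348) and by 0.25 ± 0.09 at 5 days (0.0409). Both calls were lost with scaling by library size alone and on leaving out any control mouse, and also without cold mouse 3, 4 or 5 at 2 days, and at 5 days in a shared fit, without the filter and without cold mouse 2, 3 or 4 (adjusted p up to 0.0948). At 3 days the value of 0.22 was called only without cold mouse 3 (adjusted p 0.0309). Mccc2 had 31.1, 20.6, 26.3, 25.0 and 24.0 CPM in controls and was called at no duration against room temperature, with log2 fold changes from -0.28 at 1 day to 0.32 at 5 days (adjusted p 0.0861 to 0.814). The 5-day value was called higher without control mouse 1 or cold mouse 1 (adjusted p down to 0.0246), and with library size alone Mccc2 was called lower at 6 hours (log2 fold change -0.39) and at 1 day (-0.51). Between 6 hours (24.6, 18.0, 23.5, 23.8 and 22.0 CPM) and 5 days (23.8, 34.1, 37.9, 35.8 and 27.5 CPM) it rose, as given above, and 4 of the 5 later mice lay above every 6-hour mouse.

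These subunits of a shared enzyme varied together between mice. After each duration's mean was removed, Mccc1 and Mccc2 had r = 0.783 over 35 mice (permutation within durations, p = 1e-05, the smallest that 100000 permutations can give, adjusted 6e-05 over 6 relations) and rho = 0.794. The r was 0.759 without the 2 mice farthest out on Mccc1, 0.827 within the mice of 2 to 5 days, and 0.549 with scaling by library size alone (adjusted permutation p 0.0116). Only the 6 relations were computed, so how often other gene pairs reach such an r was not tested. The part of each library's make-up in this relation was not tested either. No batch is given in the labels, so no value within batches could be had.

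**Figure D4:**
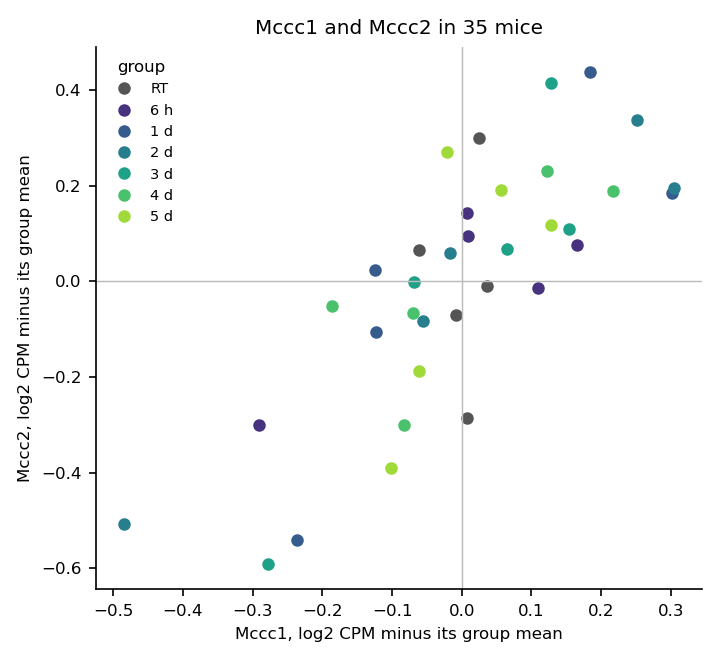
Log2 CPM of Mccc1 (horizontal axis) and Mccc2 (vertical axis) in 35 mice, each minus the mean of its group, with groups in different colours. Mice with more Mccc1 than their group mean mostly also had more Mccc2 (r = 0.783).

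Of 23 other genes of the pathway, 22 passed the filter. Of these, 5 were higher and 7 lower at 6 hours, 4 and 10 at 1 day, 5 and 6 at 2 days, 5 and 7 at 3 days, 6 and 7 at 4 days and 6 and 7 at 5 days, which is 50 to 63.6% of the list. In the same comparisons 31.2 to 42.5% of all tested genes were called. Among genes tested in the separate fits, the entry genes Slc3a2 and Slc43a2 had the largest rises against room temperature, except at 4 days. At 4 days Mcee, described below, exceeded Slc43a2 (log2 fold change 1.70 against 1.63). Slc3a2, the heavy chain that carries the large neutral amino acid transporters to the membrane, went from 35.6 ± 4.18 CPM (SD, n = 5) in controls to 216 ± 30.8 at 6 hours and 182 ± 39.6 at 5 days, with log2 fold changes of 2.59 ± 0.12 (SE, adjusted p 6.76e-11) and 2.35 ± 0.15 (2.36e-09) and between 1.77 and 2.20 at the durations in between. Slc43a2, a transporter of large neutral amino acids, went from 22.1 ± 6.26 to 120 ± 11.1 CPM at 6 hours and was higher at all 6 durations by 1.61 to 2.42. Slc7a8, a light chain of such transporters, rose at 6 hours (log2 fold change 1.59 ± 0.16, adjusted p 5.21e-07), fell by 1.89 ± 0.14 from 6 hours to 1 day (1.58e-07) and was next called at 5 days, with a log2 fold change of -0.89 against room temperature. Slc7a5, the other light chain on the list, had at most 2.44 ± 1.62 CPM as a group mean (3 days) and did not pass the filter of the separate fits. In the fit of all 7 groups together it passed the filter and differed between groups (edgeR, adjusted p 0.0287), and there it was called higher than in controls at 3 days (log2 fold change 2.29 ± 0.72, adjusted p 0.0132). Slc25a44, the mitochondrial carrier of branched-chain amino acids, had log2 fold changes of 0.08, 0.22, 0.38, 0.45, 0.54 and 0.70 in order of duration and was called from 2 days on (adjusted p 0.00917 at 2 days and 6.13e-06 at 5 days), with 122.9 ± 3.60 CPM at 5 days against 75.5 ± 2.59 in controls.

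Of the 8 genes of the valine and isoleucine routes, 4, 6, 4, 5, 4 and 3 were lower than in controls in order of duration and none was higher, where DESeq2 called 1 higher at 5 days (Acat1, log2 fold change 0.24, adjusted p 0.0482). Beside them, 21.0, 17.8, 14.7, 15.5, 18.6 and 18.6% of all tested genes were lower under TMM, and 16.4 to 21.5% were higher. In a shared fit 2, 7, 4, 4, 3 and 3 of the 8 were lower, and without the filter 4, 6, 4, 4, 3 and 3. With library size alone 7, 8, 7, 6, 5 and 5 of the 8 were lower. Of all tested genes, 3399 of 10593, 3218 of 10658, 2776 of 10629, 2430 of 10827, 2670 of 11048 and 3347 of 10733 were then lower. Under TMM 2225, 1901, 1565, 1674, 2056 and 1998 of the same genes were lower. Aldh6a1, which oxidises methylmalonate semialdehyde at the end of the valine route, went from 213 ± 18.6 CPM in controls to 84.6 ± 26.8 at 1 day and was lower at all 6 durations, by 0.39 on the log2 scale at 6 hours and by 1.04 to 1.33 afterwards (adjusted p at most 0.00368). Hsd17b10, a dehydrogenase of the isoleucine route, was lower at 5 of 6 durations and fell by 0.73 from 6 hours to 1 day (adjusted p 0.00701). At 5 days Acad8, Echs1 and Acat1 had log2 fold changes of 0.14, 0.09 and 0.24, none of them called by edgeR. On the route from propionyl-CoA to succinyl-CoA, Mcee, methylmalonyl-CoA epimerase, went from 106 ± 12.4 CPM to 316 ± 29.0 at 1 day, with log2 fold changes of 0.52 at 6 hours and 1.57 to 1.70 afterwards (adjusted p at most 0.00171). Pcca, the biotin-bearing subunit of propionyl-CoA carboxylase, rose by 1.16 ± 0.14 from 6 hours to 5 days (adjusted p 1.14e-06). Against controls Pcca was called higher at 2 of 6 durations. Its partner Pccb, named after its values were seen, was lower than controls at 5 of 6 durations. Acad8, isobutyryl-CoA dehydrogenase, rose by 0.79 ± 0.15 from 6 hours to 5 days (0.000256), from 64.7% to 111% of the control mean. Hlcs, the ligase that attaches biotin to the carboxylases, had 4.95 ± 1.101 CPM in controls and 2.13 ± 1.02 at 6 hours, a log2 fold change of -1.24 ± 0.34 (adjusted p 0.00698). It was called at no other duration against controls, and over all 7 groups together it was not called (edgeR, adjusted p 0.109).

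The shapes of the genes' time courses, given here for 8 of them, were compared with those of 6229 genes with a mean of at least 10 CPM, over the 7 group means of log2 CPM. With only 7 points, which share their mice and scaling, such values describe likeness of shape and nothing more. Closest to Ppm1k were Rnf19b (r = 0.983), Pecr and Sec14l4. Dbt lay closest to Cycs, which encodes cytochrome c (r = 0.989), Polr2j and S100a13. Closest to Bckdk were the clock repressor Nr1d2 (r = 0.988), Cpeb1 and Hpf1. Bckdhb lay closest to Rassf3 (r = 0.982), Afg1l and Reep5. Bcat2 lay closest to Smc5 (r = 0.951), Asph and Dleu2, and Ivd to Tmem205 (r = 0.984), Usp22 and Bnip3. Mccc1 lay closest to Pdk4, the kinase of the pyruvate dehydrogenase complex (r = 0.966), Fam20b and Lypla1, whereas Mccc2 lay closest to Cdk5 (r = 0.978), Npepl1 and Ndufs3, so the first 3 genes of these subunits did not coincide.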

How the data were processed

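RNA from iBAT of 35 mice was profiled with the QuantSeq 3′ FWD kit. The authors aligned reads with STAR 2.6.1d and made counts per gene with HTSeq 0.11.2 on GRCm38.98, and deposited them as whole-number counts without normalization. Symbols came from a table pairing them with the identifiers (55154 matched, 267 not), positions from GENCODE and promoters from RefSeq, both on GRCm38.

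Each duration was compared with room temperature by a separate quasi-likelihood fit (R 4.3.3, edgeR 4.0.16, TMM scaling, genes kept by filterByExpr, Benjamini-Hochberg over all tested genes). CPM were scaled by TMM, and their log2 values had a prior count of 2 added. The SE is the log2 fold change divided by the root of its F value. The ratio and Bcat1 were tested by exact two-sided permutation over 252 splits, with Bcat1 added because it failed the filter. Relations used 100000 permutations within durations (Python 3.11.15, scipy 1.17.1). DESeq2 1.42.0, other scalings, no filter, a replicate block, a shared fit and omission of each mouse were alternatives.

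Genes and lists were chosen with earlier results of these data known. The text names all 10 genes, at most 4 called pathway genes per comparison by size, Dld and Slc25a44, and the 3 genes most alike in shape. In counts simulated for 6 hours against room temperature (10432 genes), edgeR recovered 69 of 88 genes changed by 1 on the log2 scale and 106 of 106 changed by 2. It also made 14 false calls. Far fewer genes changed in the simulation than were called in the data at 6 hours (42.5%), so it does not show how the test does at that share. No mice were described as pooled. p-values weigh a difference or a relation against the spread between mice. A result is not reported here.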

Additional observations from a re-analysis of the deposited data

Results flagged for a closer look

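In the 5 mice of 1 day, Bcat1 was at 1.53 CPM (6 reads) in replicate 4 and between 0 and 0.230 CPM in the others, a gap above the 95% critical value of Dixon's test (0.71 for 5 samples). It was the 1 sample marked among 70 groups of values, of which chance marks about 1 in 20.

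Effects against room temperature differed between durations by the direct test of the difference (edgeR's quasi-likelihood test). Between 1 day and 6 hours the log2 fold changes differed by 0.27 for Dbt, 1.16 for Ppm1k and -0.58 for Ivd. Between 5 days and 6 hours they differed by 0.32 for Bckdhb, 1.53 for Ppm1k and 0.52 for Mccc2.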

How the results depend on the processing

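The 19 calls named in the report kept their direction and side of the threshold under DESeq2, RLE size factors, library size alone, TMM without mitochondrial genes and Gm42418, no filter, a shared fit, a replicate block and the omission of each mouse. The number of genes called at 6 hours, 4 under TMM, was 7 with library size alone and ran from 2 to 4 when mice were left out (2 without control mouse 3 or cold mouse 2). At 2 days 7 were called, and 2 to 6 when mice were left out (2 without control mouse 3 or cold mouse 5, 3 without control mouse 4 or 5, 4 without control mouse 1 or cold mouse 1 or 2). At 3 days 2 were called, and 1 to 3 when mice were left out (1 without control mouse 1, 3 or 5 or cold mouse 1). Equal replicate numbers showed no clear pairing of the mice: correlations of their deviations ran from -0.24 to 0.14. In each comparison at most 2 of the 5 libraries of the first-named group correlated best with their own number in the other group. With the replicate block 4 genes were called at 2 days and 1 at 3 days, with Bckdhb, Bckdk and Mccc1 lost at 2 days, Bckdk at 3 days, Mccc1 at 5 days and Dbt between 1 day and 6 hours, and Ivd gained at 6 hours. Over all 7 groups together 7 of 9 then differed, with Mccc2 lost.

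The difference of Bckdk and Ppm1k ran over omissions from 1.48 to 1.87 at 6 hours, from 0.32 to 0.63 at 1 day, from -0.14 to 0.16 at 2 days, from -0.25 to 0.15 at 3 days, from 0.34 to 0.64 at 4 days and from 0.017 (without cold mouse 4) to 0.38 (without cold mouse 2) at 5 days. With library size alone the relation of Bcat1 with Lgals3 passed the threshold (r = 0.463, adjusted permutation p 0.0356), and those of Bckdha with Bckdhb and with Dbt turned to -0.255 and -0.182. Uncalled log2 fold changes near 0 changed sign. With library size alone, Mccc1 gave -0.13 at 6 hours and -0.17 at 1 day, Bckdhb -0.11 at 1 day, Mccc2 -0.15, -0.091 and -0.0023 at 2, 3 and 4 days, and Bckdha -0.17 at 5 days. Over omissions Bckdhb ran from -0.10 to 0.0046 at 6 hours, Mccc1 from -0.015 to 0.13 at 1 day, Bckdha from -0.18 to 0.026 at 2 days and from -0.091 to 0.068 at 3 days, and Mccc2 from -0.00076 to 0.20 at 2 days and from -0.054 to 0.19 at 3 days. Between 1 day and 6 hours Mccc1 ran from -0.092 to 0.051 and Mccc2 from -0.21 to 0.021, and between 5 days and 6 hours Bckdk ran from -0.090 to 0.051. The causes were not tested. Depth limits Bcat1 most: with 0 to 11 reads per library its change cannot be sized.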
